A study of Homo sapiens with 72 samples.

Results

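The genes described here nearly all encode matrix metalloproteinases (MMPs), ADAM and ADAMTS metalloproteinases or tissue inhibitors of metalloproteinases (TIMPs). They were chosen by symbol alone, as every gene named MMP, ADAM or ADAMTS followed by a number, or TIMP1 to TIMP4, in the mRNA count files. This gave 67 of 26485 gene symbols, of which 22 are MMPs, 22 ADAMs, 19 ADAMTS genes and 4 TIMPs. The GENCODE v44 annotation lists ADAM5 as a pseudogene and ADAM6 as a long noncoding RNA. Poly(A) RNA was sequenced from DU145, a human prostate cancer line, and IGROV1, a human ovarian cancer line, in wild type (WT) and in clones edited with CRISPR/Cas9 in exon 12 of TUT4 and exon 14 of TUT7. TUT4 and TUT7 are enzymes that add uridines to the ends of RNAs, and LIN28A is an RNA-binding protein that recruits them to the let-7 precursors.

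There were 9 groups of 4 libraries. IGROV1, which makes LIN28A itself, was sequenced as WT (passages 6 to 9), mutant clone 1 (passages 2 to 5) and mutant clone 2 (passages 3 to 6). DU145 was sequenced as WT (4 passages ending at 160), clone 1 (passages 9 to 12) and clone 2 (passages 8 to 11). The same WT line and the same 2 clones of DU145 were sequenced again after infection with a lentivirus in which the CMV promoter drives LIN28A, followed by puromycin selection (passages 1 to 4 each). The 4 libraries of a group are successive passages of 1 line or 1 clone, so an adjusted p measures the spread between passages, and a difference between a clone and WT does not separate the edited genes from other features of that clone. No replicate of a separate WT clone was in the series, and without added LIN28A the passage numbers of WT and clones also differed.

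MMPs and ADAMTS enzymes are zinc proteases that cut components of the extracellular matrix, and most MMPs act once secreted. The membrane-type MMPs stay at the cell surface, where MMP14 cuts collagen and activates the MMP2 precursor. ADAMs are membrane proteins, and ADAM10 and ADAM17 are the main sheddases, which release growth factors, cytokines and adhesion molecules from the cell surface. Several ADAMs lack an active protease site and act as adhesion or receptor proteins. TIMPs bind and block these enzymes, and TIMP2 also takes part in the activation of the MMP2 precursor by MMP14.

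Libraries held 7195437 to 25054688 reads assigned to genes, and levels are given as CPM, a gene's share of these reads scaled to a common total. LIN28A was at 0 to 0.460 CPM in DU145, 64.8 to 406 CPM in the LIN28A-overexpressing lines and 158.996 to 325 CPM in IGROV1, and the LIN28A-overexpressing WT line held less (64.8 to 74.7 CPM) than its mutant clones (229 to 406 CPM). TUT4 mRNA (listed as ZCCHC11) averaged 78.0 CPM in IGROV1 WT and 26.6 and 27.1 CPM in its clones, and 56.7 CPM in DU145 WT against 12.02 CPM in clone 1 and 41.7 CPM in clone 2. TUT7 mRNA (ZCCHC6) was lower in every clone (log2 fold changes of -0.86 to -1.58, 6 of 6 called), whereas TUT4 mRNA was not called lower in DU145 clone 2 with or without LIN28A. An edited transcript can still be transcribed, so this checks the labels only in part. The prostate markers KLK3 and HOXB13 were at 0 to 0.118 CPM in the DU145-derived lines. Of 3 Müllerian markers, PAX8 was at 427 to 854 CPM in IGROV1, whereas WT1 was at 0 to 1.51 CPM and MUC16 at 0 to 2.79 CPM there, and MUC16 was at 11.05 to 34.04 CPM in DU145 WT. Replicate 4 of both IGROV1 clones and replicate 1 of the LIN28A-overexpressing WT line correlated least with the rest of their groups (mean r of 0.931, 0.954 and 0.921).

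Of the 67 genes, 2 had no read in any library (ADAM6 and ADAM29) and 20 more stayed under a group mean of 0.5 CPM in all groups, among them MMP3, MMP8, MMP10, MMP12 and ADAM33. In another 6 the highest group mean lay between 0.5 and 1 CPM, in 11 between 1 and 10, in 17 between 10 and 100 and in 11 above 100 CPM. After removal of genes with low counts, 32 of the 67 were tested in IGROV1, 30 in DU145 and 43 where both lines were fitted together. Genes were called at an adjusted p below 0.01 in edgeR's quasi-likelihood test, with the adjustment made over all genes tested.

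The per-library map of the expressed genes shows that the lines carry different sets.

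**Figure D1:**
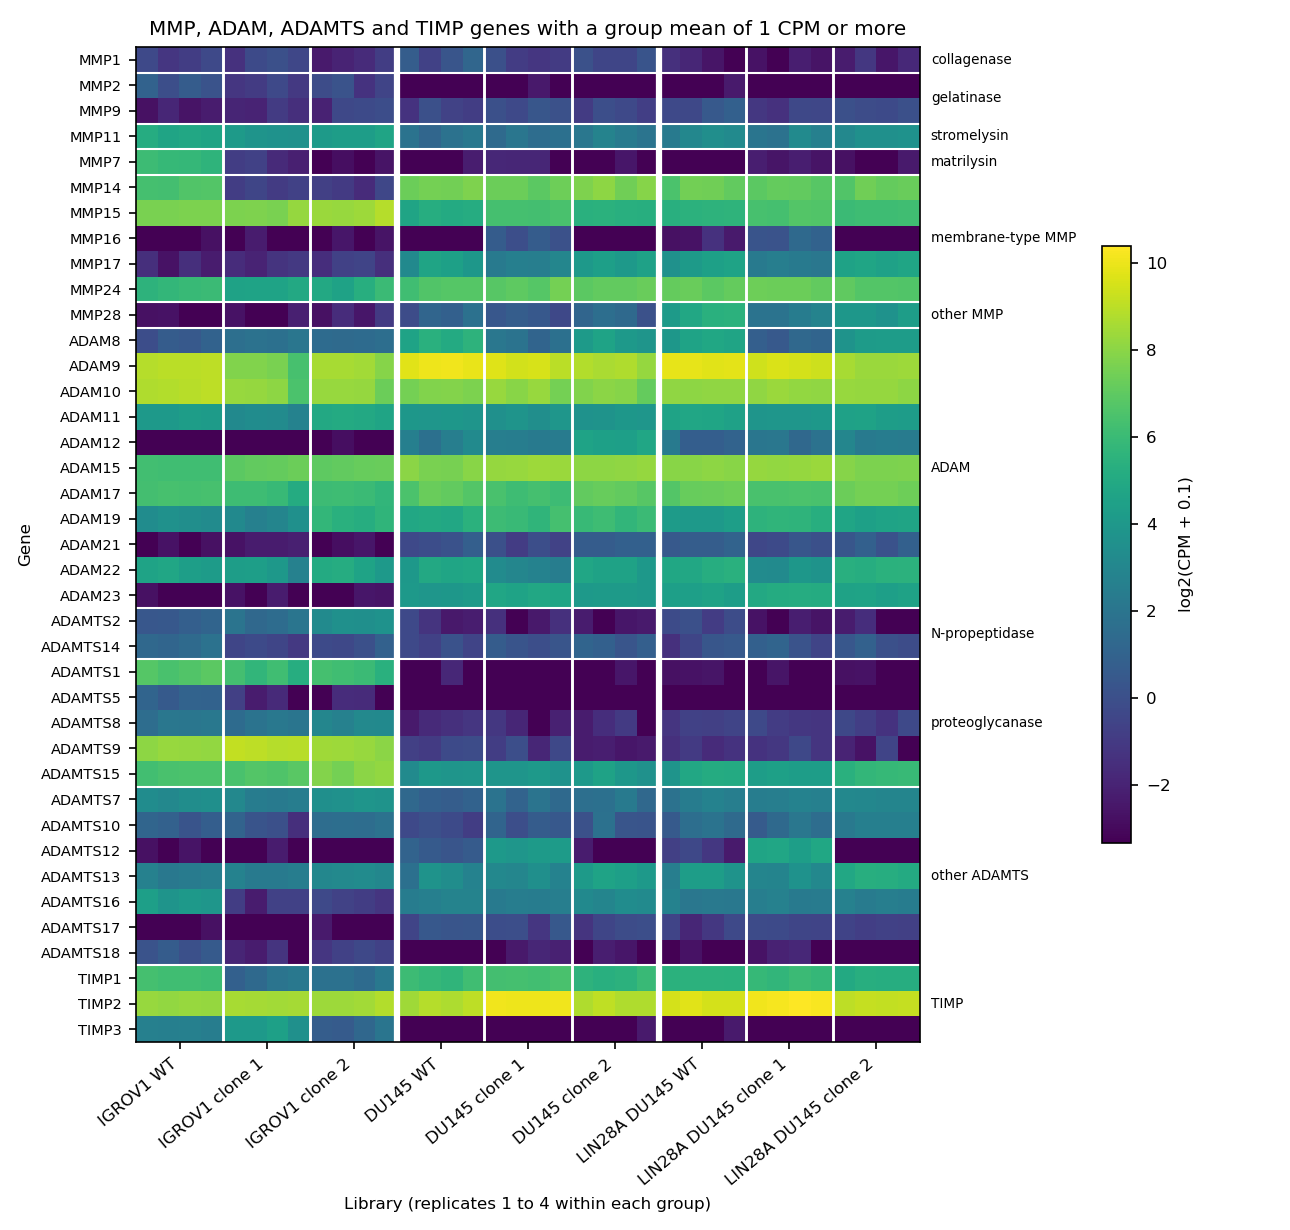
Level of the genes with a mean of 1 CPM or more in at least 1 of the 9 groups. Each column is 1 library, each row 1 gene, and colour is log2(CPM + 0.1); white lines part the groups and the functional classes. MMP7, MMP14, ADAMTS16 and TIMP1 are bright in IGROV1 WT and dark in both IGROV1 clones, whereas ADAMTS1, ADAMTS9 and TIMP3 are at or near 0 throughout DU145.

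To compare levels between genes, CPM was divided by the length of the merged exons in kilobases (GENCODE v44). On this scale TIMP1, TIMP2 and MMP15 were highest in IGROV1 WT, at 51.1 ± 3.8, 48.4 ± 2.0 and 47.0 ± 1.2 CPM per kb (SD, n = 4), and their ranges overlapped or nearly met. They were followed by ADAM10 (29.5 ± 2.2), ADAM9 (28.0 ± 1.4), ADAMTS9 (27.0 ± 1.4), MMP7 (24.6 ± 3.1) and MMP14 (19.7 ± 3.1 CPM per kb), which also lay within each other's spread from 1 rank to the next. In DU145 WT the order was TIMP2 (70.0 ± 12), ADAM9 (56.3 ± 6.0), TIMP1 (42.3 ± 7.0), MMP14 (39.4 ± 4.7), ADAM15 (34.0 ± 4.9) and MMP24 (22.4 ± 3.9 CPM per kb). The other genes of DU145 WT were at or below 12.99 CPM per kb, the level of ADAM10.

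In IGROV1 the TUT4/7 mutants were compared with WT. Over the mean of both clones, 18 of the 32 genes tested were called, where 30.0% of all genes tested were. Of these, 6 were higher and 12 lower, against 14.0% and 16% of all genes. Clone 1 alone gave 5 higher and 13 lower (12.8% and 15% of all genes, 27.8% in all), and clone 2 gave 9 higher and 8 lower (13.2% and 14.5%, 27.7% in all). The median log2 fold change was -0.30 over the 32 genes and 0.00 over all genes. The 4 MMPs called in this fit were lower (MMP2, MMP7, MMP11 and MMP14), as was the 1 TIMP called (TIMP1). The ADAMs were split, with 3 higher and 2 lower of 9 tested, and so were the ADAMTS genes, with 3 higher and 5 lower of 13.

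The largest falls were in MMP7, MMP14, ADAMTS16 and TIMP1. The promoters of MMP7, MMP14 and TIMP1 are shown because these 3 genes fell together in both clones; the table of promoters used here does not hold ADAMTS16. Each runs from 250 bases before to 50 bases after the RefSeq start on GRCh38.p14, read 5′ to 3′ on the gene's strand. The matches to an AP-1 site (TGANTCA) and a TATA box (TATAAA), searched on both strands, are in capitals.

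MMP7, minus strand, chr11:102530698-102530997: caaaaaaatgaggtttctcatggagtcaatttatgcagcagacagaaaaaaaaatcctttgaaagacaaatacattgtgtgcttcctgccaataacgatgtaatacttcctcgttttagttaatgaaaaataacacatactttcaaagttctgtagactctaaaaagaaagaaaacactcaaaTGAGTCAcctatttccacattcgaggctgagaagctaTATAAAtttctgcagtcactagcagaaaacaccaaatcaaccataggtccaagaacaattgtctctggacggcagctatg
MMP14, plus strand, chr14:22836335-22836634: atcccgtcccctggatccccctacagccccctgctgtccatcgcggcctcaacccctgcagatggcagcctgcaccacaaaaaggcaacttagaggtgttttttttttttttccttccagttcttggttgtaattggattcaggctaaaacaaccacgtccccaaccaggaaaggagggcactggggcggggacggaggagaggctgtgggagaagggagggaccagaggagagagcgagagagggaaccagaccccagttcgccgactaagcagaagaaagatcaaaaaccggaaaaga
TIMP1, plus strand, chrX:47582186-47582485: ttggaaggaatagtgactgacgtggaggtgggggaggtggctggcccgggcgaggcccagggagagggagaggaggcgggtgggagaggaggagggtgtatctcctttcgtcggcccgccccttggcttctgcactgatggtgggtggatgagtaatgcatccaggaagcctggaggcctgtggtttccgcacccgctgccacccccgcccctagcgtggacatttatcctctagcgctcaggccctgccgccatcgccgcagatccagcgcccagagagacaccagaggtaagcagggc

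The MMP7 promoter holds an AP-1 match 67 bases and a TATA match 30 bases before the start, and the promoters of MMP14 and TIMP1 hold neither match. Only these exact letters were searched, and near matches such as tgagtaa in TIMP1 were not counted. A promoter without a match may therefore still hold an AP-1 site. Among all 35116 promoters of this length, 7.71% hold the AP-1 letters and 11.5% the TATA letters. The ETS core (GGAAG, no overlap with the other motifs in these promoters) occurs in all 3, and in 71.9% of all promoters. The table held 39 of the 67 genes, of which 4 have an AP-1 match (ADAMTS12, MMP7, MMP10 and MMP20). A match describes the letters only.

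MMP14, the membrane-type protease that activates the MMP2 precursor, lies at chr14:22836560-22849041 (hg38, plus strand). It was singled out with its change in IGROV1 already known, so its values there are a description. It stood at 80.1, 78.0, 101 and 106 CPM in IGROV1 WT, at 0.457, 0.635, 0.413 and 0.517 CPM in clone 1 and at 0.504, 0.399, 0.226 and 0.658 CPM in clone 2. Both clones lay far below WT with no overlap, and close to each other. From 6428 reads in WT against 28 and 33 in the clones, the pooled level in WT was 175 times that of clone 1 (95% exact counting interval 121 to 264) and 203 times that of clone 2 (144 to 295). Intervals of this kind cover counting error only.

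MMP7, or matrilysin, a small secreted protease of epithelial cells, lies at chr11:102520508-102530750 on the minus strand. It was at 66.0, 58.4, 54.8 and 49.0 CPM in IGROV1 WT, at 0.457, 0.529, 0.206 and 0.129 CPM in clone 1 and at 0, 0.0399, 0 and 0.0658 CPM in clone 2. No library of either clone came near WT, and clone 2 held 2 reads in all against 21 in clone 1. The pooled level in WT was 146 times that of clone 1 (95% interval 95.6 to 237) and 2096 times that of clone 2 (579.8 to 17310). MMP7 was called lower in clone 1 (adjusted p = 5.4e-10) and in clone 2 (adjusted p = 2.1e-10, edgeR). It is 1 of 9 MMP genes within chr11:102520508-102955732, and the others of that cluster were at low levels in IGROV1, where MMP1 alone passed the filter.

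TIMP1, a secreted inhibitor of most MMPs and of ADAM10, lies at chrX:47582408-47586789. It was at 81.6, 72.7, 73.0 and 68.4 CPM in WT, 1.71, 2.44, 3.72 and 4.40 CPM in clone 1 and 3.33, 3.35, 2.71 and 4.34 CPM in clone 2. The groups did not overlap, and the clones overlapped each other. Its log2 fold change was -4.60 ± 0.27 (SE) in clone 1 and -4.45 ± 0.26 in clone 2 (adjusted p = 2.6e-08 and 2.4e-08). The other inhibitors did not follow. TIMP2 was at 283 to 311 CPM in WT, 362 to 380 CPM in clone 1 and 328 to 454 CPM in clone 2, and was called in neither clone. TIMP3, a matrix-bound inhibitor that also blocks ADAM17, went opposite ways: it was at 5.54 to 6.19 CPM in WT, 11.5 to 22.3 CPM in clone 1 (log2 1.55 ± 0.27, adjusted p = 4.5e-04) and 1.44 to 3.88 CPM in clone 2 (log2 -1.42 ± 0.29, adjusted p = 0.0016).

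Among the ADAMTS genes, ADAMTS16 fell most. Its 4 WT libraries held 21.3, 13.6, 16.3 and 14.5 CPM, those of clone 1 held 0.457, 0.106, 0.516 and 0.517 CPM and those of clone 2 held 0.706, 0.559, 0.452 and 0.329 CPM. The pooled WT level was 46.8 times that of clone 1 (29.8 to 78.0) and 31.1 times that of clone 2 (22.6 to 43.96), and both were called (adjusted p = 3.4e-08 and 2.7e-08). ADAMTS5, a main aggrecanase, was low even in WT, at 1.36 to 2.07 CPM, and was called lower in clone 1 (0 to 0.514 CPM, adjusted p = 0.0012) and clone 2 (0 to 0.239 CPM, adjusted p = 1.5e-04). ADAMTS18 fell from 0.931 to 1.48 CPM in WT to at most 0.310 CPM in clone 1 and at most 0.677 CPM in clone 2, with adjusted p of 9.1e-05 and 0.0046.

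The procollagen N-propeptidases, which trim the ends of fibrillar procollagens, moved apart. ADAMTS2 was at 1.24, 1.24, 1.66 and 2.07 CPM in WT, 3.83, 2.38, 2.79 and 3.88 CPM in clone 1 and 9.28, 11.5, 11.4 and 12.4 CPM in clone 2, and rose in both (log2 1.09 ± 0.24 and 2.81 ± 0.23, adjusted p = 0.0030 and 5.3e-07). ADAMTS14 was at 2.13 to 3.47 CPM in WT, 0.388 to 0.741 CPM in clone 1 and 0.679 to 1.78 CPM in clone 2, and fell in both (log2 -2.03 ± 0.34 and -1.42 ± 0.30, adjusted p = 3.4e-04 and 0.0019). ADAMTS3, the other member of this class, was too low to test.

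The proteoglycanases ADAMTS9 and ADAMTS15 were each called higher over the mean of the clones, with 1 clone carrying most of it. ADAMTS9 was at 269 to 306 CPM in WT, 472 to 554 CPM in clone 1 (log2 0.88 ± 0.09, adjusted p = 8.3e-06) and 257 to 349 CPM in clone 2 (log2 0.07 ± 0.09, adjusted p = 0.58). ADAMTS15 was at 75.7 to 90.6 CPM in WT, 88.0 to 117 CPM in clone 1 (log2 0.32 ± 0.16, adjusted p = 0.14) and 180 to 288 CPM in clone 2 (log2 1.46 ± 0.16, adjusted p = 1.2e-05). ADAMTS1 went lower over the mean of the clones, from 88.8 to 121 CPM in WT to 37.0 to 76.7 CPM in clone 1 and 40.7 to 80.0 CPM in clone 2 (log2 -0.76 ± 0.18, adjusted p = 0.0044).

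Of the ADAMs, ADAM15 and ADAM8 rose in both clones. ADAM15, which binds integrins, was at 74.2, 73.0, 73.3 and 73.4 CPM in WT, 123, 139, 143 and 159.3 CPM in clone 1 and 128, 137, 144 and 152 CPM in clone 2, and all mutant libraries lay above all WT libraries (log2 1.009 ± 0.12 and 0.91 ± 0.12, adjusted p = 1.9e-05 and 4.4e-05). ADAM8 was at 0.828 to 1.86 CPM in WT, 3.14 to 4.14 CPM in clone 1 and 2.55 to 2.96 CPM in clone 2 (adjusted p = 3.1e-04 and 0.0047). ADAM19 rose in clone 2 alone, from 9.84 to 12.03 CPM in WT to 37.5 to 54.4 CPM (log2 2.08 ± 0.21, adjusted p = 3.7e-06), and was at 6.14 to 11.8 CPM in clone 1 (adjusted p = 0.34). ADAM11, which lacks an active protease site, fell in clone 1 (log2 -0.97 ± 0.13, adjusted p = 4.4e-05) and rose in clone 2 (log2 0.71 ± 0.12, adjusted p = 4.3e-04).

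The sheddase ADAM10 was at 432, 454, 487 and 511 CPM in WT, 306, 294, 269 and 89.3 CPM in clone 1 and 303, 304, 293 and 156 CPM in clone 2. All mutant libraries lay below all WT libraries, and replicate 4 of each clone lay far below the other 3. ADAM10 was called over the mean of the clones (log2 -0.90 ± 0.24, adjusted p = 0.0083) but in neither clone alone (adjusted p = 0.019 and 0.028). The averaged call was lost with library totals alone (adjusted p = 0.014) and when any 1 WT library, replicate 3 of clone 1 or replicate 1, 2 or 3 of clone 2 was left out, whereas with all 36 libraries in 1 fit ADAM10 was called in each clone (adjusted p = 5.1e-04 and 0.0011). With the replicate number added to the model as a block, ADAM10 was also called in both clones. ADAM9, a membrane protease, had the same shape, at 458 to 514 CPM in WT, 83.3 to 219 CPM in clone 1 and 234 to 386 CPM in clone 2 (log2 -0.999 ± 0.19 over both clones, adjusted p = 8.0e-04). ADAM17, the sheddase of tumour necrosis factor, was at 77.5 to 84.7 CPM in WT, 34.4 to 70.4 CPM in clone 1 and 51.998 to 70.4 CPM in clone 2, with log2 -0.41 ± 0.14 and an adjusted p of 0.028.

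The 2 replicate 4 libraries were among those that correlated least with their groups, so the tests were repeated without them and without replicate 4 of the DU145 clones, a choice made after the data were seen. The changes of ADAM10 and ADAM9 were then a little smaller (log2 -0.70 and -0.83) with adjusted p of 7.0e-08 and 2.0e-09, and ADAM17 was called (log2 -0.30, adjusted p = 3.6e-04). The number of genes called in both clones with 1 sign went from 10 of 32 to 16 of 32, and was 7 to 9 when 1 WT library was left out. The share of all genes called in those runs is not given here, so these shifts are not read as particular to these genes.

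Those 10 genes were MMP7, MMP14, ADAMTS16, TIMP1, ADAMTS5, ADAMTS18 and ADAMTS14, which were lower, and ADAM15, ADAM8 and ADAMTS2, which were higher; 15.6% of all genes tested were called in both clones with 1 sign, 8.94% lower and 6.65% higher. TIMP3 and ADAM11 were called with opposite signs, as were 0.919% of all genes. The 6 that joined without replicate 4 were ADAM9, ADAM10, ADAM17, ADAMTS1, MMP11 and MMP24, all lower.

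**Figure D2:**
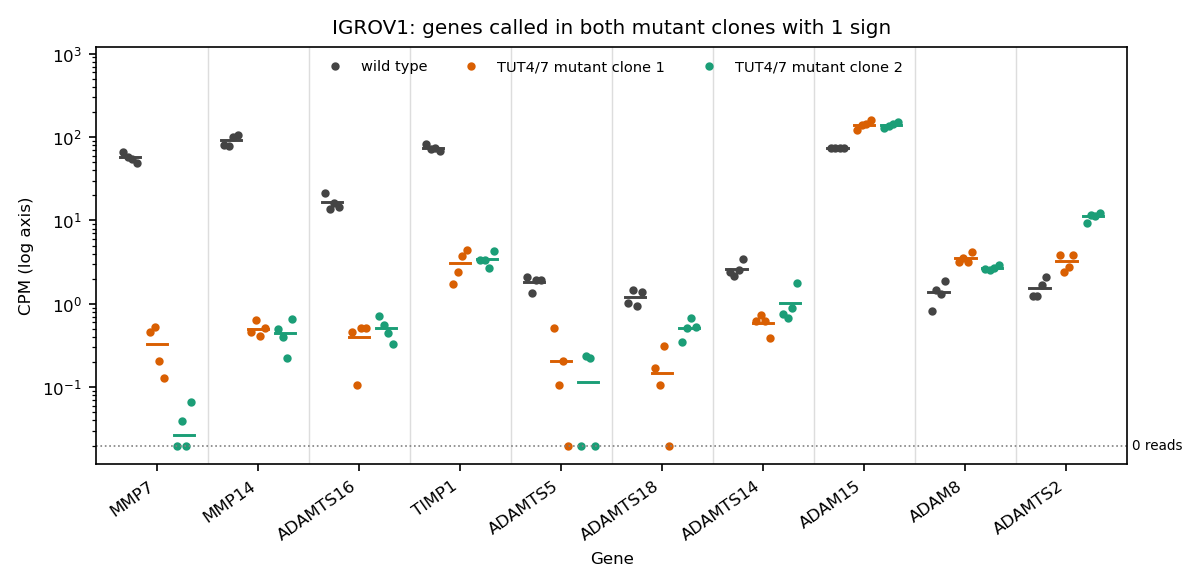
Level of the 10 genes called in both IGROV1 mutant clones with 1 sign, in CPM on a log axis. Points are libraries, bars are means of 4 libraries, and libraries with 0 reads are drawn on the dotted line. The 7 genes on the left fell, with MMP7, MMP14, ADAMTS16 and TIMP1 furthest from WT, and the 3 on the right rose.

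Of the remaining MMPs in IGROV1, MMP11, or stromelysin-3, was at 25.1 to 36.03 CPM in WT, 12.2 to 17.7 CPM in clone 1 and 17.9 to 25.3 CPM in clone 2 (log2 -0.75 ± 0.14 over both, adjusted p = 9.0e-04). MMP2, a gelatinase, was at 0.889 to 1.92 CPM in WT and at 0.301 to 1.04 CPM over both clones (log2 -1.20 ± 0.30, adjusted p = 0.0058), and its adjusted p passed 0.01 when any of 4 single libraries was left out (up to 0.033). MMP9, the other gelatinase, held 7 reads in WT, 12 in clone 1 and 43 in clone 2, and did not pass the filter of this fit; it was called higher with all 36 libraries in 1 fit (log2 1.81 ± 0.51, adjusted p = 0.0043). MMP15, a membrane-type MMP, was at 195 to 205 CPM in WT, 195 to 294 CPM in clone 1 (adjusted p = 0.24) and 306 to 461 CPM in clone 2 (log2 0.82 ± 0.18, adjusted p = 0.0026). Over both clones the log2 fold change of MMP15 was 0.55 ± 0.16 (adjusted p = 0.013). It was called higher with library totals alone as the scaling (adjusted p = 0.0061), with DESeq2 (0.0058) and with all 36 libraries in 1 fit (3.8e-04).

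Summed marker levels also differed between IGROV1 groups, but only the leukocyte sum lay apart from WT in both clones. The summed level of the 5 epithelial markers (EPCAM, CDH1, KRT8, KRT18 and KRT19) was 1118 to 1242 CPM in WT, 709.9 to 1204 CPM in clone 1 and 324 to 380.3 CPM in clone 2, with 5, 3 and 3 of the 5 at a mean of 1 CPM or more. That of the 3 endothelial markers was 67.9 to 109 CPM in WT, 14.98 to 31.2 CPM in clone 1 and 52.6 to 96.6 CPM in clone 2, and that of the 7 fibroblast markers 17.2 to 20.6, 16.4 to 22.6 and 27.1 to 34.0 CPM, 2 of the 7 being at 0 in each IGROV1 group, DCN in all 3. The 5 leukocyte markers summed to 23.2 to 31.6 CPM in WT, 10.97 to 18.5 CPM in clone 1 and 10.2 to 19.2 CPM in clone 2, with 1 of the 5 at 0. CD68 made up most of the leukocyte sum, at 22.9 to 31.2 CPM in WT. The epithelial markers did not move alike. EPCAM averaged 77.4 CPM in WT, 0.245 CPM in clone 1 and 0.127 CPM in clone 2. In the same order KRT8 averaged 195, 2.74 and 1.54 CPM, and CDH1 4.52, 0.881 and 0.222 CPM. KRT18 averaged 226, 292 and 32.8 CPM, and KRT19 696, 595 and 308 CPM. Each group was a culture of 1 line or 1 clone, so these lists do not count cells of other types. In bulk RNA, fewer cells with a marker and less marker RNA per cell cannot be told apart. The part of these markers in the results was not tested.

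The same comparison in DU145, which lacks LIN28A, gave 9 called genes of 30, against 21.6% of all genes tested. Of these, 5 were higher and 4 lower, against 9.13% and 12.5% of all genes. Clone 1 gave 7 higher and 5 lower (12.9% and 13.1% of all genes, 26.0% in all), and clone 2 gave 3 and 3 (10.9% and 13%, 23.9% in all). MMP14 was at 158.5, 185, 175 and 210.4 CPM in WT, 159.1, 156.9, 122 and 166 CPM in clone 1 and 213, 269, 170 and 236 CPM in clone 2. The groups overlapped and MMP14 was not called (log2 -0.05 over both clones, approximate 95% interval -0.36 to 0.26). TIMP1 was at 50.2 to 71.1 CPM in WT, 76.0 to 88.5 CPM in clone 1 and 39.4 to 61.7 CPM in clone 2, also not called (log2 -0.02, interval -0.26 to 0.22). ADAMTS16, at 5.32 to 6.99 CPM in WT and 4.80 to 9.95 CPM in the clones, was not called either. MMP7 held 1 read in WT, 6 in clone 1 and 1 in clone 2.

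ADAM8, ADAM9 and ADAM19 were called in both DU145 clones with 1 sign, where 6.52% of all genes tested were (2.72% higher, 3.80% lower). ADAM8, a protease best known in leukocytes, was at 24.96, 41.9, 33.6 and 46.1 CPM in WT, 4.15, 3.59, 2.04 and 3.20 CPM in clone 1 and 17.8, 25.01, 16.3 and 13.9 CPM in clone 2. It was lowest in clone 1, and clone 2 overlapped WT at 1 library (log2 -3.47 ± 0.25 and -1.14 ± 0.21, adjusted p = 4.0e-10 and 2.0e-04). ADAM9 was at 867 to 1097 CPM in WT, 501 to 839 CPM in clone 1 and 294 to 446 CPM in clone 2 (log2 -0.50 ± 0.12 and -1.47 ± 0.12, adjusted p = 0.0023 and 2.9e-09). ADAM19 was at 29.1 to 42.4 CPM in WT, 49.4 to 81.3 CPM in clone 1 and 51.4 to 68.8 CPM in clone 2, above WT in every mutant library (log2 0.98 ± 0.15 and 0.74 ± 0.15, adjusted p = 1.6e-05 and 3.5e-04).

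Other genes differed between the DU145 clones. ADAMTS12 was called with opposite signs in the clones, as were 2.36% of all genes. It was at 1.94, 1.35, 1.10 and 1.41 CPM in WT, 16.2, 14.7, 17.6 and 18.5 CPM in clone 1, and 0.107, 0, 0 and 0 CPM in clone 2. The pooled level of clone 1 was 11.5 times that of WT (95% interval 8.74 to 15.4), and clone 2 held 1 read against 56 in WT. MMP16, a membrane-type MMP, had no read in WT or clone 2 and was at 0.896 to 1.51 CPM in clone 1, at least 15.98-fold higher than the limit of 3 counts over the 4 WT libraries. TIMP2 was at 343 to 513 CPM in WT, 1044 to 1089 CPM in clone 1 (log2 1.32 ± 0.11, adjusted p = 2.2e-09) and 423 to 538 CPM in clone 2 (log2 -0.06 ± 0.10, adjusted p = 0.68). MMP15 rose in clone 1 from 25.7 to 37.4 CPM to 78.7 to 86.4 CPM (adjusted p = 7.2e-10) and was at 39.2 to 43.6 CPM in clone 2 (adjusted p = 0.14). ADAM22 and MMP17 fell in clone 1 (log2 -1.74 ± 0.20 and -1.55 ± 0.25) and had adjusted p of 0.25 and 0.98 in clone 2. ADAM12 rose in clone 2, from 3.22 to 9.42 CPM to 21.1 to 28.0 CPM (log2 1.86 ± 0.29, adjusted p = 2.0e-05). ADAM10 was not called in DU145 (log2 0.12, interval -0.10 to 0.35).

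The plot of each clone's change shows where the 2 clones of a line went together and where they went apart.

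**Figure D3:**
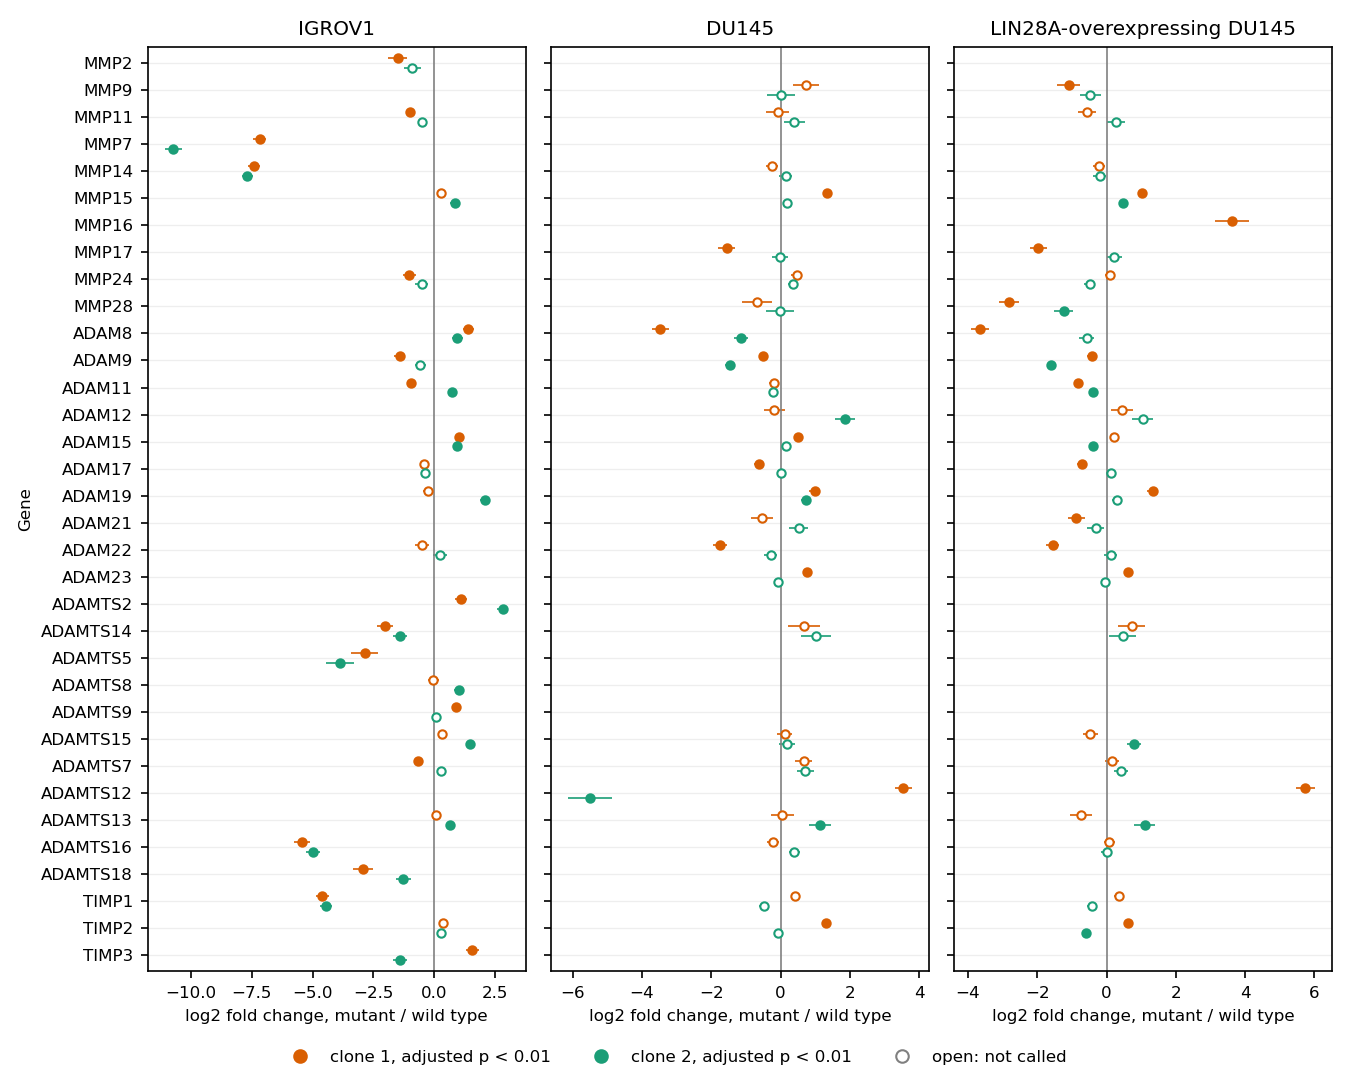
Log2 fold change of each mutant clone against its own WT for genes called in at least 1 clone, in IGROV1, DU145 and LIN28A-overexpressing DU145. Points are estimates from 4 libraries against 4, lines are ± 1 SE, filled points have an adjusted p below 0.01, and genes with 0 reads in either group are left out of that panel; the 2 clones of a panel share their WT libraries. MMP14, TIMP1 and ADAMTS16 lie far left in IGROV1 and near 0 in both DU145 panels, and ADAMTS12 lies on opposite sides in the 2 DU145 clones.

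Whether the mutant effect differed between the lines was tested as an interaction over all 36 libraries. It was called for 12 of 43 genes, against 24.2% of all genes tested. The effect was higher in IGROV1 for 4 and lower for 8, against 11.3% and 12.8% of all genes. The difference in log2 fold change, IGROV1 minus DU145, was -5.29 ± 0.26 for ADAMTS16 and -4.51 ± 0.22 for TIMP1 (adjusted p = 1.7e-17 for each), and -7.48 ± 0.28 for MMP14. It was also lower in IGROV1 for ADAMTS14 (-2.56 ± 0.48, adjusted p = 7.9e-05), MMP24 (-1.18 ± 0.26, adjusted p = 4.7e-04) and ADAM10 (-1.02 ± 0.26, adjusted p = 0.0021). It was higher for ADAM8 (3.48 ± 0.30, adjusted p = 3.0e-11), which rose in IGROV1 and fell in DU145, for ADAMTS2 (3.48 ± 0.75, adjusted p = 4.1e-04), ADAMTS9 (1.89 ± 0.46, adjusted p = 0.0015) and ADAM15 (0.63 ± 0.13, adjusted p = 2.1e-04). MMP7, ADAMTS18, ADAMTS9 and ADAMTS2 were near 0 in DU145, so the DU145 side of their estimates rests on few reads. Without replicate 3 of DU145 clone 2, which leaves that clone with no MMP7 read, the adjusted p of MMP7 became 1.00, and ADAMTS2 was not called without replicate 1 of DU145 WT. In MMP24, 18.4% of the merged exon length overlaps MMP24OS on the opposite strand, as 10.3% of ADAM17 does IAH1 and 8.14% of MMP1 does WTAPP1, and the strand setting of the counting was not given in the sources used here.

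In LIN28A-overexpressing DU145, 8 of 30 genes were called between mutants and WT, against 20.8% of all genes. Of these, 2 were higher and 6 lower, against 8.30% and 12.5% of all genes. Clone 1 gave 6 higher and 9 lower (13% and 15.2% of all genes, 28.2% in all). Clone 2 gave 3 higher and 6 lower (11.4% and 12.5%, 23.9% in all). LIN28A mRNA was itself higher in these clones than in their WT line (log2 2.08 ± 0.17). The edited genes and the LIN28A level therefore cannot be told apart in this comparison. ADAM9, MMP28 and ADAM11 fell and MMP15 rose in both clones, and 6.37% of all genes tested were called in both with 1 sign (2.37% higher, 4% lower). MMP15 and MMP28 were called in both under each alternative run for this count. ADAM11 was lost from clone 2 with DESeq2 size factors, library totals alone, no filter and 1 fit of all libraries, and with the replicate block (adjusted p = 0.011), and ADAM9 from clone 1 with library totals alone (adjusted p = 0.023), no filter (0.0104) and 1 fit (0.042). With 1 WT library left out, ADAM11 was not called in both clones without replicate 1, 2 or 3, nor ADAM9 without replicate 1, 2 or 4. With the replicate block ADAM12 was called higher in clone 2 (log2 1.07 ± 0.27, adjusted p = 0.0030, against 0.011 without it). ADAM9 was at 865 to 955 CPM in WT, 654 to 768 CPM in clone 1 and 317 to 389 CPM in clone 2 (log2 -0.43 ± 0.12 and -1.59 ± 0.12, adjusted p = 0.0067 and 6.9e-10). MMP28, or epilysin, a secreted MMP of epithelia, was at 17.9, 29.7, 40.8 and 45.4 CPM in WT, 3.63, 3.68, 5.33 and 6.81 CPM in clone 1 and 14.998, 15.4, 12.7 and 19.8 CPM in clone 2. Clone 1 lay below WT in every library and clone 2 overlapped WT at its lowest library (log2 -2.81 ± 0.29 and -1.24 ± 0.27, adjusted p = 6.2e-08 and 8.2e-04). MMP15 was at 39.5 to 48.1 CPM in WT, 82.0 to 105 CPM in clone 1 and 64.0 to 72.5 CPM in clone 2 (adjusted p = 2.0e-08 and 4.9e-04). ADAM8 fell in clone 1, from 14.9 to 28.4 CPM to 1.32 to 2.42 CPM (adjusted p = 1.0e-10), and was at 13.1 to 19.3 CPM in clone 2 (adjusted p = 0.036).

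Each DU145 clone was set beside its LIN28A-overexpressing derivative, which was compared with separate WT libraries. In clone 1, 12 of 30 genes were called without LIN28A and 15 with it, and 11 were called in both with the same sign: ADAM8, ADAM9, ADAM17, ADAM19, ADAM22, ADAM23, ADAMTS12, MMP15, MMP16, MMP17 and TIMP2. Of all genes tested, 16.2% were called in both with the same sign in clone 1 and 15.1% in clone 2. In clone 2, 6 were called without LIN28A and 9 with it, and 3 were shared with the same sign: ADAM9, ADAMTS12 and ADAMTS13. The log2 fold change had the same sign in 24 of 30 genes in clone 1, against 78.2% of all genes, and in 20 of 30 in clone 2, against 76.4%. The libraries of a clone and its derivative share that clone's history, so these counts do not replicate the genotype. ADAMTS12 was at 20.7 to 28.1 CPM in LIN28A-overexpressing clone 1, 0.101 to 0.697 CPM in WT and 0 reads in all 4 libraries of clone 2, where WT was at least 9.02-fold higher than the limit of 3 counts over the group. TIMP2, at 721 to 877 CPM in WT, was higher in clone 1 (1076 to 1334 CPM, adjusted p = 5.9e-05) and lower in clone 2 (523 to 584 CPM, adjusted p = 8.7e-05). TIMP2 and ADAMTS12 were the 2 genes called with opposite signs here, as were 2.86% of all genes.

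Whether the mutant effect in DU145 differed with LIN28A was tested as an interaction, and none of the 30 genes was called by edgeR, against 0.412% of all genes tested (60 of 14561; 0.151% higher, 0.261% lower). At an unadjusted p below 0.05 there were 6 (TIMP2, MMP28, MMP24, ADAM15, ADAM11 and MMP9), where 14.3% of all genes passed. DESeq2 called 2 genes, TIMP2 and MMP28, whose edgeR estimates were -0.62 ± 0.13 (adjusted p = 0.013) and -1.68 ± 0.42 (adjusted p = 0.040). The share of all genes called by DESeq2 is not given here, so its count is not read as particular to these genes. For MMP14 the difference was -0.16 with an approximate 95% interval of -0.60 to 0.28. For TIMP1 it was -0.01 with an interval of -0.34 to 0.33. Because the LIN28A-overexpressing clones held more LIN28A than their WT line (log2 2.08 ± 0.17), the interaction does not separate the edited genes from that difference.

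The DU145 lines with LIN28A were compared with those without it. In the WT line, 13 of 30 were called, against 10.3% of all genes tested, with 9 higher and 4 lower against 7.05% and 3.21%, and the median log2 fold change was 0.40 over the 30 genes and 0.01 over all genes. In the mutant clones, 16 were called, against 27.4% of all genes, with 9 higher and 7 lower against 14.8% and 12.6%. The LIN28A-overexpressing lines were also infected, selected and kept at other passages, so these cannot be told apart from LIN28A.

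MMP28 rose most. In DU145 WT it was at 0.818, 2.08, 1.75 and 3.30 CPM without LIN28A and at 17.9 to 45.4 CPM with it, with no overlap (log2 4.07 ± 0.33, adjusted p = 6.3e-08). In the mutant clones it was at 0.695 to 3.001 CPM without LIN28A and 3.63 to 19.8 CPM with it (log2 2.40 ± 0.25, adjusted p = 3.1e-07). MMP1, an interstitial collagenase, went the other way. It was at 1.53, 0.519, 1.10 and 2.24 CPM in WT and at 0.277, 0.174, 0.0734 and 0 CPM with LIN28A, 51 reads against 9 (log2 -3.07 ± 0.53, adjusted p = 3.0e-04), and was also lower in the mutants (log2 -2.53 ± 0.45, adjusted p = 2.1e-04).

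The ADAMTS genes ADAMTS7, ADAMTS10 and ADAMTS15 rose with LIN28A in WT (log2 1.46 ± 0.23, 1.84 ± 0.41 and 1.03 ± 0.22, adjusted p = 1.1e-04, 0.0031 and 0.0023) and in the mutants (log2 1.06, 1.34 and 1.03). ADAMTS7, which acts on cartilage matrix, was at 1.56 to 2.35 CPM without and 3.43 to 6.76 CPM with LIN28A in WT; a pseudogene copy, ADAMTS7P1, is listed separately, and reads that fit both could be split. ADAM12 and ADAM19, both metalloproteases of the meltrin type, fell in WT (log2 -1.26 ± 0.32 and -0.91 ± 0.15, adjusted p = 0.0066 and 1.7e-04) and in the mutants (log2 -1.36 and -0.96). ADAM12 in the LIN28A-overexpressing WT line was at 4.65 CPM in replicate 1 and 1.62 to 1.93 CPM in the others. ADAM19 was at 29.1 to 42.4 CPM without and 16.1 to 20.4 CPM with LIN28A in WT. ADAMTS12 was also called lower in WT, at 0.115 to 0.202 CPM per kb without and 0.0106 to 0.0726 CPM per kb with LIN28A. TIMP2 rose in WT from 343 to 513 CPM to 721 to 877 CPM (log2 0.80 ± 0.11, adjusted p = 1.4e-05), with log2 0.18 ± 0.07 in the mutants (adjusted p = 0.053). MMP11, ADAM11, ADAM23 and MMP15 were higher in both settings, with log2 0.35 to 1.24.

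The number called in WT changed when single libraries were left out. It was 7 without replicate 1 of DU145 WT, 8 without replicate 2 and 7 without replicate 3 of the LIN28A-overexpressing WT line. The share of all genes called in those runs is not given here, so the drop is not read as particular to these genes.

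MMP14 and TIMP1 were both lower with LIN28A in the mutants (log2 -0.51 ± 0.13 and -0.51 ± 0.10, adjusted p = 0.0034 and 4.3e-04) and had log2 -0.36 ± 0.18 and -0.50 ± 0.14 in WT (adjusted p = 0.16 and 0.014). Without replicate 4 of the DU145 clones MMP14 was no longer called (log2 -0.45, adjusted p = 0.019).

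**Figure D4:**
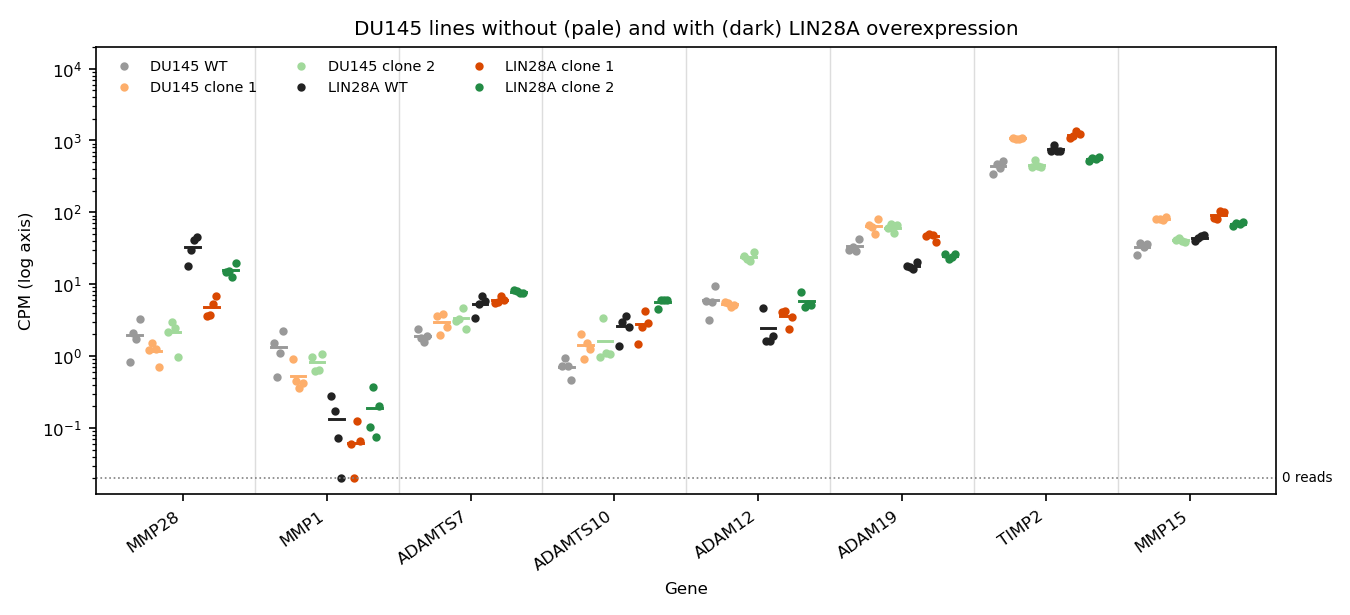
Level of 8 genes in the 6 DU145 groups, in CPM on a log axis. Points are libraries, bars are means of 4 libraries, pale colours are lines without and dark colours lines with LIN28A, and libraries with 0 reads are drawn on the dotted line. MMP28 is higher and MMP1 lower in the lines with LIN28A, while clone 1 is highest for TIMP2 and MMP15 in both settings.

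The WT lines themselves differed in most of these genes: 33 of 43 were called, against 60.0% of all genes tested, with 16 higher and 17 lower in DU145 against 31.3% and 28.7%. All 5 proteoglycanases tested (ADAMTS1, ADAMTS5, ADAMTS8, ADAMTS9 and ADAMTS15) were lower in DU145, while 8 of 12 ADAMs were higher and 2 lower. ADAMTS1, a protease of versican and aggrecan, was at 88.8 to 121 CPM in IGROV1 and held 2 reads over the 4 DU145 libraries. ADAMTS9 was at 269 to 306 CPM in IGROV1 and 0.415 to 0.825 CPM in DU145, a pooled ratio of 465 (95% interval 312 to 726). TIMP3, MMP2, ADAMTS5 and ADAMTS18 had no read in DU145 WT, so that IGROV1 was at least 76.4-, 17.2-, 23.6- and 15.8-fold higher than the limit of 3 counts over the group.

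In the other direction, ADAM23, an ADAM without an active protease site, was at 14.8 to 17.4 CPM in DU145 and held 1 read in IGROV1. ADAM12 was at 3.22 to 9.42 CPM in DU145 and held no read in IGROV1, at least 139-fold higher. MMP17, a membrane-type MMP, was at 8.90 to 25.4 CPM in DU145 and 0.0593 to 0.266 CPM in IGROV1, a pooled ratio of 106 (60.0 to 205). ADAM8 was at 24.96 to 46.1 CPM in DU145 and 0.828 to 1.86 CPM in IGROV1 (log2 4.64 ± 0.25, adjusted p = 2.5e-17). MMP14 was higher in DU145 (log2 0.92 ± 0.18, adjusted p = 2.4e-05), and TIMP1 was not called (log2 -0.35 ± 0.17, adjusted p = 0.063).

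**Figure D5:**
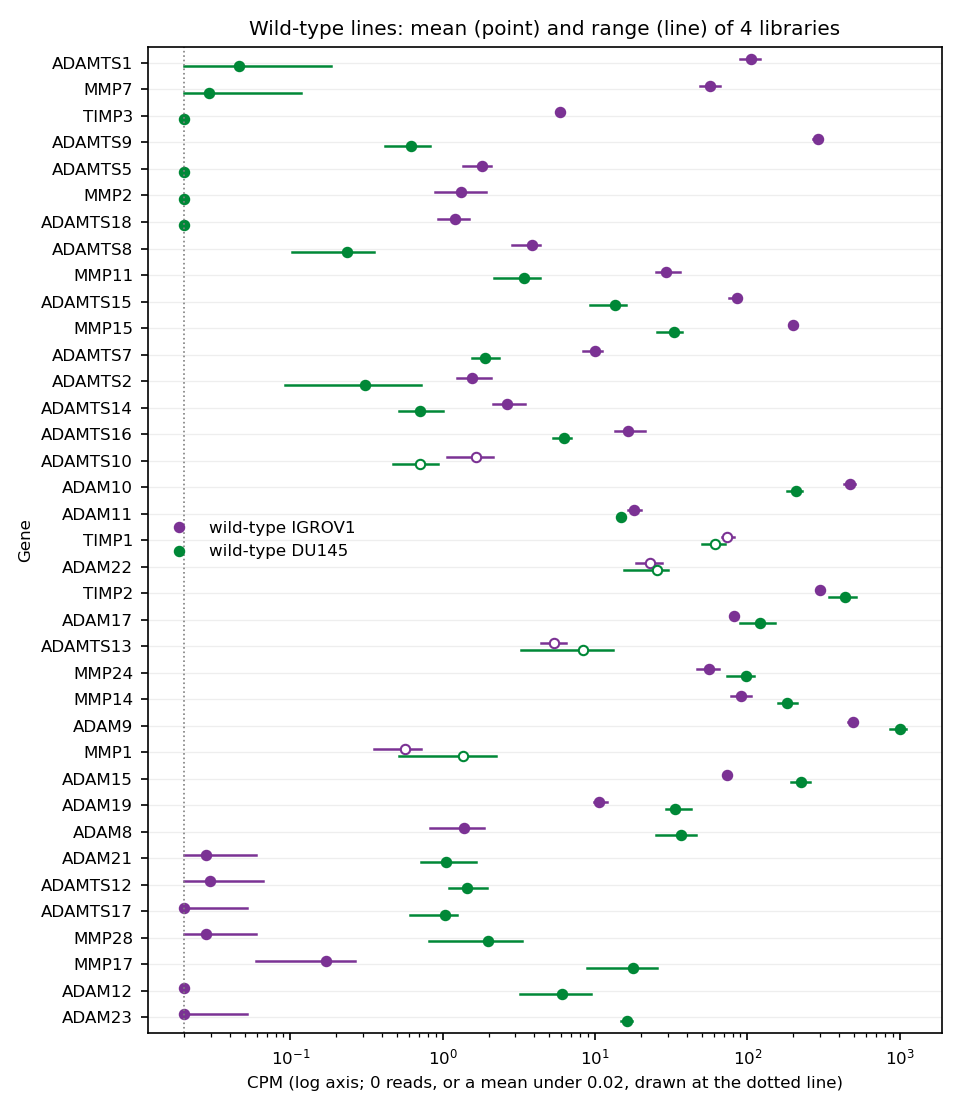
Level of genes with a mean of 1 CPM or more in WT IGROV1 or WT DU145, on a log axis. Points are means of 4 libraries, lines run from the lowest to the highest library, and open points mark genes not called between the lines. ADAMTS1, MMP7 and TIMP3 at the top are largely absent from DU145, and ADAM12 and ADAM23 at the bottom from IGROV1.

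Genes that act on or with these proteases were counted from a list of 47 partners, inhibitors, activators and transcription factors. In IGROV1, 41 were tested and 19 were called between mutants and WT (5 higher, 14 lower), against the 30.0% of all genes given above. The transcription factor ETS1 was at 18.4 CPM in WT and 0.0323 and 0.179 CPM in the clones (log2 -8.04), and FOSL1, a subunit of AP-1, fell from 17.8 CPM to 0.838 and 0.442 CPM (log2 -4.89). CD44, a cell-surface protein that binds MMP7 and MMP14, fell from 73.3 to 8.91 and 12.9 CPM (log2 -2.75). FURIN, which activates the membrane-type MMPs and ADAMs, fell by 1.37 on the log2 scale. TSPAN15, a tetraspanin partner of ADAM10, was lower (log2 -1.42) and TSPAN5, another such partner, higher (log2 2.50). SPOCK1, a testican, was the most raised (log2 3.65), and FOSB, JUNB and ETS2 were also higher.

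In DU145, 15 of 42 partner genes were called between mutants and WT (9 higher, 6 lower), and in LIN28A-overexpressing DU145 12 (7 higher, 5 lower), against 21.6% and 20.8% of all genes. CD44 was higher in both (log2 0.82 and 0.80). FOSL1 was not called in either, and ETS1 was called lower without LIN28A by 0.32 on the log2 scale. The interaction between the lines was called for 20 of 43 partners (4 higher, 16 lower in IGROV1), against 24.2% of all genes (11.3% higher, 12.8% lower), among them ETS1 (-7.68), FOSL1 (-5.08) and CD44 (-3.56).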

How the data were processed

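The authors trimmed the poly(A) reads of a directional library kit with Trimmomatic 0.39, removed ribosomal reads, aligned them to hg38 with HISAT2 2.1.0 and counted reads per gene with HTSeq; annotation and strand setting are not given in the sources used here. The deposited files hold raw counts per gene symbol. The 5 HTSeq summary lines were left out (no-feature reads, 7.25 to 12.6%). The 36 small RNA libraries were not used. Groups came from the labels. Members and lists were chosen with earlier results of these data known.

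Counts were tested in edgeR 4.0.16 (R 4.3.3; TMM, filterByExpr, quasi-likelihood F test, Benjamini-Hochberg over all genes), in 1 fit of the 12 IGROV1 and 1 of the 24 DU145-derived libraries, and in all 36 for comparisons between lines. SE is the log2 fold change over the root of F, and approximate intervals are ± 1.96 SE. The averaged contrast weights both clones equally, and gives no usable estimate where a clone had 0 reads (MMP16 and ADAMTS12). Pooled ratios use summed counts and totals with exact Clopper-Pearson limits (SciPy 1.17.1). The pipeline was tested on simulated data. Named were MMP14, ADAM10, ADAM17, MMP2, MMP9, TIMP1 to TIMP3, the 8 highest members of each WT group and, per comparison, up to 12 called members with the largest change and the same side of WT in both clones; further genes named were chosen after their values were seen. Lengths and positions are from GENCODE v44. Alternatives were other scalings, no filter, DESeq2 1.42.0, a replicate block, all libraries in 1 fit, leaving out each library, and leaving out replicate 4 of the mutant clones. In LIN28A-overexpressing WT and clone 2 the deviations of same-numbered libraries from their group means correlated in 4 of 4 pairs (r of 0.34 to 0.73), a pairing taken from the data and not the labels, so the blocked values of that comparison are given beside it. Some marker and partner genes are not reported here.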

Additional observations from a re-analysis of the deposited data

Results flagged for a closer look

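A library that stood apart from the other 3 of its group by Dixon's criterion was found in 16 of 209 combinations of named gene and group with a mean of 1 CPM or more. Chance marks about 1 in 20. In the IGROV1 clones ADAM10 was lowest in replicate 4, at 89.3 CPM in clone 1 and 156 CPM in clone 2, and so was ADAM9 in clone 1 (83.3 CPM), whereas MMP24 in clone 1 was highest there (31.3 CPM). In IGROV1, ADAMTS7 was at 8.29 CPM in replicate 1 of clone 1 and ADAMTS10 at 3.55 CPM in replicate 4 of clone 2. Replicate 1 of LIN28A-overexpressing clone 2 was highest for ADAM15 (237 CPM), ADAM9 (389 CPM) and MMP24 (133 CPM) and lowest for ADAMTS10 (4.48 CPM). Replicate 1 of the LIN28A-overexpressing WT line was highest for ADAM12 (4.65 CPM) and ADAMTS16 (6.70 CPM), and replicate 2 of that line for TIMP2 (877 CPM). Replicate 2 of DU145 clone 2 was highest for ADAMTS10 (3.38 CPM) and TIMP2 (538 CPM), and replicate 2 of LIN28A-overexpressing clone 1 for ADAMTS15 (22.3 CPM).

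The mutant effect differed between IGROV1 and DU145 for 12 genes in the edgeR interaction test. The difference in log2 fold change, IGROV1 minus DU145, was -9.92 for MMP7, -7.48 for MMP14, -5.29 for ADAMTS16, -5.17 for ADAMTS18, -4.51 for TIMP1, -2.56 for ADAMTS14, -1.18 for MMP24, -1.02 for ADAM10, 0.63 for ADAM15, 1.89 for ADAMTS9, 3.48 for ADAM8 and 3.48 for ADAMTS2.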

How the results depend on the processing

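No named result changed direction under the alternatives run. Counts under the alternatives are given without the share of all genes called in the same run. A change in such a count is therefore not read as particular to these genes. Of 1459 recomputed values of named genes, 55 lost the call, 49 of them when 1 library was left out, and they belonged to 14 results. The count of genes called in both IGROV1 clones was 16 without replicate 4 of the mutant clones, which was chosen after seeing the data. The count called in both LIN28A-overexpressing clones was 2 with library totals alone as the scaling, which shifted the median log2 fold change by 0.16 in clone 2. The interaction with LIN28A gave 2 genes with DESeq2 and 1 with the replicate block. Leaving out 1 library gave 7 to 15 genes for LIN28A in WT DU145, 2 to 4 in both LIN28A-overexpressing clones (2 without replicate 2 of that WT line) and 0 to 2 for the LIN28A interaction (1 without replicate 4 of DU145 WT, 2 without replicate 1 of the LIN28A-overexpressing WT line). DESeq2 did not call ADAMTS5 between the WT lines (adjusted p = 0.062) or ADAMTS18 in the interaction between lines (0.014). Replicate numbers did not pair WT with the clones of IGROV1 or of DU145: of same-numbered pairs, 1 of 4 had r over 0.1 for each IGROV1 clone, and 1 of 4 and 2 of 4 for the DU145 clones. All 4 were over 0.1 between the 2 IGROV1 clones and between the 2 DU145 clones. With the replicate block 20 genes were called in the IGROV1 mutants, MMP15 and MMP24 being added, and 12 in both IGROV1 clones, ADAM10 and ADAMTS1 being added, while MMP2 lost the call in clone 1. It gave 10 genes in the DU145 mutants (ADAM12 added), added TIMP1 in DU145 clone 2 and, with LIN28A in the mutants, exchanged ADAMTS16 for ADAM10. In LIN28A-overexpressing clone 2 it changed no call but those of ADAM11 and ADAM12. With all libraries in 1 fit ADAM9 was not called in both DU145 clones. Leaving out 1 WT library gave 7 to 9 genes in both IGROV1 clones, and ADAMTS1 lost its averaged call there without replicate 1, 3 or 4 of WT. Low counts limit MMP2, MMP9, ADAMTS5, ADAMTS18 and MMP16. The causes were not tested.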
